A study of Homo sapiens with 20 samples.

Results

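The response of AU565 to torkinib was compared with the mean response of A375 and SKMEL28, the 3 lines that received the same dose. AU565 is an established human breast cancer line with amplified ERBB2 (HER2). A375 and SKMEL28 are established human melanoma lines that carry activating BRAF mutations. Torkinib (PP242) blocks the ATP site of the kinase MTOR. In each line 2 libraries came from untreated cells and 2 from cells exposed to 4 µM torkinib for 72 h, which makes 12 of the 20 libraries of the series. The labels give no time for the untreated cells, and they put AU565, A375 and SKMEL28 in different media (RPMI with pyruvate, DMEM and MEM), so that line and medium cannot be told apart. The dose was chosen by the submitters to stop the cell cycle and keep cells viable. The measure is a difference of differences on the log2 scale: torkinib over untreated in AU565, minus the mean of the same change in both melanoma lines. It is read for the 9009 genes, of 16698 tested, with a mean of 5 CPM or more (CPM, counts scaled to library size, over the 4 libraries of a line) in all 3 lines. Whether the replicates are separate cultures is not stated, so each p-value refers to the scatter among libraries, possibly only technical.

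MTOR works in a pair of protein complexes. Complex 1 promotes protein, lipid and nucleotide synthesis, in part by raising the translation of the transcription factor ATF4 and the processing of the lipid regulators SREBF1 and SREBF2, and it restrains autophagy. Complex 2 activates AKT, which keeps FOXO transcription factors out of the nucleus. ATF4 is also the output of the integrated stress response, in which kinases that sense amino acid shortage or unfolded protein phosphorylate the initiation factor eIF2. Its targets are the enzymes and transporters of amino acid supply, the cytosolic tRNA synthetases, and stress regulators such as DDIT3 (CHOP). The promoter of CTGF is shown because this gene is described below among the matrix genes. That list holds more higher than lower responses in AU565.

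The sequence is the 250 bases before the start in RefSeq (GRCh38.p14), at chr6:131951373-131951622 on the minus strand. Capitals mark GGAATG, the core element of TEAD factors, searched on both strands.
CTGF: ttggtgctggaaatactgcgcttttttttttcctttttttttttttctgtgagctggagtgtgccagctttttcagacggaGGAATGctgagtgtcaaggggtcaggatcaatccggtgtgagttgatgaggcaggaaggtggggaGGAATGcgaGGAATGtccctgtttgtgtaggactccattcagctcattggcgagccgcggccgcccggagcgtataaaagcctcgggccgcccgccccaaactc
An ATF4 element, TGATGNAA, was searched on both strands too. It occurs in 3.19% of the 27305 promoters of the table and in 1.16% of the 7439 genes of the comparison that matched it. Of the ATF4 targets, 3 of 23 matched promoters (13%) held it, as did 2 of 13 for the tRNA synthetases (15.4%). An element of the lipid regulators SREBF1 and SREBF2, TCACNCCAC, was searched as well. It occurs in 0.875% of all promoters and in 0.807% of the matched genes of the comparison. Of the cholesterol synthesis genes 1 of 16 matched promoters held it, and of the fatty acid synthesis genes 0 of 11. GGAATG is short and occurs in 11.9% of all promoters and in 9.05% of the matched genes of the comparison. It stood in 3 of 11 matched promoters of the mesenchymal and matrix list, with 3 copies in that of CTGF. A match of letters is a description of the window and not a binding site.

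The lines carried their own markers. ERBB2 measured 9856 and 9403 CPM in untreated AU565 and 69.5 and 67.2 in untreated A375. The summed level of 18 luminal and HER2 markers was 22320 and 22330 CPM in untreated AU565 and at most 676 CPM in any melanoma library. Summed melanocyte markers were 9655 and 9243 CPM in untreated SKMEL28 and 804 and 870 CPM in untreated A375, which is therefore a melanoma line with low pigment genes. Libraries held 4040023 to 9737903 counted reads. Of 19 genes that mark 94T778, a liposarcoma line of the same series, the median level in untreated A375 replicate 1 was 2.15% of that in 94T778, against 0.157% in replicate 2. The MDM2 gene, amplified in that liposarcoma line, measured 223 and 106 CPM in these A375 libraries.

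MTOR itself measured 121 and 118.6 CPM in untreated AU565 and 77.6 and 81.8 with torkinib. The levels were 121 and 125 and then 118 and 131 in A375, and 290.3 and 299.9 and then 244 and 224 in SKMEL28. Its mRNA fell in AU565 by 0.59 on the log2 scale and in SKMEL28 by 0.33, and the change in A375 was 0.01. The difference of AU565 from the melanoma mean was -0.43 (SE 0.10, edgeR adjusted p = 0.000748), and the difference from SKMEL28 alone did not pass the test. Torkinib acts on the protein, so this mRNA does not check the labels.

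The response of AU565 differed from the melanoma mean at 4981 of 9009 genes (55.3%), by edgeR's quasi-likelihood test at an adjusted p of 0.05. It was higher at 2077 (23.1%) and lower at 2904 (32.2%). A difference of at least 2-fold was called at 1241 genes (13.8%), 546 higher (6.06%) and 695 lower (7.71%); with a minimum of 1 CPM the balance turned, with 992 higher and 939 lower. Over 1 gene in 2 passed the test alone. The counts of each gene list below are therefore to be read against 23.1% higher and 32.2% lower, and the sizes matter more than the calls. In these counts higher and lower refer to the response, unless a level is named. AU565 also moved further: its median absolute change was 0.48 on the log2 scale, against 0.29 in A375 and 0.33 in SKMEL28. Torkinib changed 70.1% of genes in AU565 (30.4% rose and 39.7% fell), 51.2% in A375 (22.7% rose and 28.5% fell) and 57.5% in SKMEL28 (25.7% rose and 31.8% fell). The median difference over all 9009 genes was -0.09. Against 1 melanoma line alone, 53.6% of genes differed from A375 and 50.9% from SKMEL28. The responses of A375 and SKMEL28 differed from each other as well, by a median absolute log2 difference of 0.33. That value was 0.45 for AU565 minus A375 and 0.43 for AU565 minus SKMEL28. A total of 2933 genes (32.6%) differed from each melanoma line taken alone in the same direction, 1217 higher (13.5%) and 1716 lower (19%) in AU565; these tests share the AU565 libraries. Without any model, the changes computed from each pairing of a torkinib with an untreated library separated AU565 from both melanoma lines at 48.8% of genes. The 32.6% and the 48.8% were not computed with A375 or SKMEL28 as the line set apart. Neither share can therefore be called particular to AU565. Levels are shares of a library's RNA, and in bulk RNA fewer cells of a kind and less RNA per cell cannot be told apart.

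The differences were of several kinds. Among the 1217 higher genes, 304 rose in AU565 and were called in neither melanoma line, and 112 fell in both melanoma lines and were not called in AU565. Among the 1716 lower genes, 411 fell in all 3 lines and fell further in AU565, and 408 fell in AU565 and were called in neither melanoma line. The 2 directions were opposite at 271 genes (3.01%): 166 (1.84%) rose in AU565 and fell in both melanoma lines, and 105 (1.17%) did the reverse. The scatter of the 2 responses shows the ATF4 targets left of the diagonal and the mitotic genes under it.

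**Figure D1:**
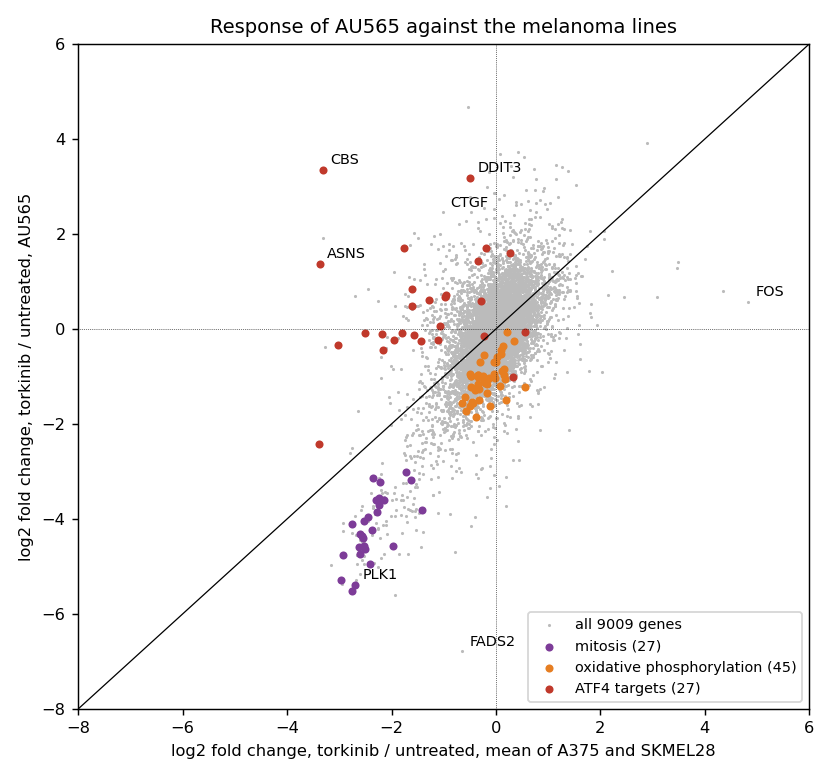
Each grey point is 1 of 9009 genes, with the mean log2 fold change of A375 and SKMEL28 on the x axis and that of AU565 on the y axis; the diagonal marks equal responses, and AKR1C2 lies outside the axes. ATF4 targets lie mostly above the diagonal (median difference 1.72), oxidative phosphorylation genes below it (-0.88) and mitotic genes furthest below it as a group (-1.78).

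The clearest split was in the genes of amino acid supply and stress. Of 27 ATF4 targets, 24 had a higher response in AU565 than the melanoma mean and 2 a lower one, against 23.1% and 32.2% of all genes. The response of the 24 was higher against each melanoma line. The median log2 difference was 1.72. In A375 23 of the 27 fell and in SKMEL28 22 fell, whereas in AU565 12 rose and 7 fell; the median changes were 0.06 in AU565, -1.83 in A375 and -0.91 in SKMEL28. Without torkinib the median level in AU565 was 0.81 lower on the log2 scale than the melanoma mean, and with torkinib it was 0.57 higher, so the order of AU565 and the melanoma mean was reversed.

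ASNS, which makes asparagine, measured 69.03 and 75.6 CPM in untreated AU565 and 188 and 187 with torkinib. In A375 it went from 502 and 466 to 44.6 and 48.7, and in SKMEL28 from 278 and 277 to 27.6 and 26.01. AU565 was thus the lowest of the 3 lines without torkinib and the highest with it, with no overlap between groups. The difference of responses was 4.75 (SE 0.11, edgeR adjusted p = 1.14e-27). CBS, the first enzyme of the route from homocysteine to cysteine, gave the largest positive difference of all 9009 genes, 6.67 (SE 0.18, edgeR adjusted p = 8.8e-26). Its levels were 7.66 and 7.27 CPM in untreated AU565 and 73.2 and 79.8 with torkinib, while A375 went from 105 and 104 to 10.4 and 7.59 and SKMEL28 from 75.3 and 64.99 to 8.3 and 7.59. Each line thus ended near the level at which the other kind had begun.

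SLC7A11, the cystine importer, had the same form at another scale: 14.5 and 10.98 CPM became 42.2 and 42.04 in AU565, 274 and 267 became 48.3 and 53.97 in A375, and 273 and 280.1 became 137 and 120.0 in SKMEL28. Its difference was 3.46 (SE 0.14, edgeR adjusted p = 6.55e-21), but AU565 with torkinib stayed below both melanoma lines with torkinib. ADM2, a peptide hormone gene, went from 14.4 and 12.2 to 50.6 and 50.4 CPM in AU565 and from 32.5 and 34.3 to 0.914 and 0.422 in A375, with a smaller fall in SKMEL28 (9.38 and 10.8 to 4.59 and 4.88). PSAT1, of serine synthesis, shows the other way to a large difference. It measured 66.2 and 72.3 CPM in untreated AU565 and 57.3 and 52.1 with torkinib, a fall of 0.34 on the log2 scale, while A375 fell from 606 and 565 to 63.1 and 55.2 and SKMEL28 from 337 and 333 to 50.9 and 49.3. All 3 lines ended at a similar level. The melanoma lines began higher and fell further, which gave the difference of 2.68.

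DDIT3, the stress regulator CHOP, rose in AU565 from 3.62 and 5.35 CPM to 35.95 and 43.2. It fell in A375 from 88.5 and 83.9 to 27.9 and 29.3 and rose less in SKMEL28, from 10.4 and 13.7 to 17.1 and 20.9. The difference was 3.67 (SE 0.22, edgeR adjusted p = 3.06e-16). The ATF4 gene itself, named after its values were seen, rose by 1.44 in AU565 and fell by 0.72 in A375, and its change in SKMEL28 was 0.02. The 2 list members with a lower response in AU565 were CEBPB (-1.34) and ATF5 (-0.61), both transcription factors. In SKBR3, the other breast line of the series, which received 0.8 µM, the log2 changes of ASNS, CBS, SLC7A11 and DDIT3 were -0.99, -0.08, -0.37 and 0.06; the dose differs, so no comparison was made.

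**Figure D2:**
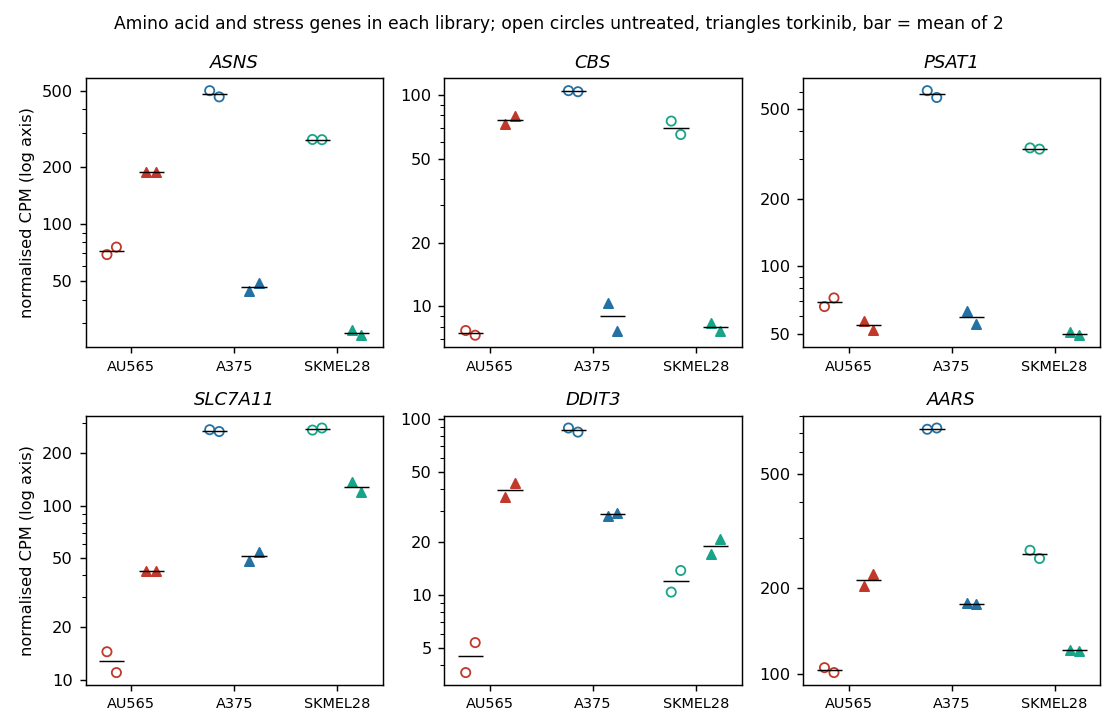
Normalised CPM on a log axis in each of the 12 libraries for 6 genes of amino acid supply and stress; open circles are untreated and triangles torkinib libraries, and bars are means of 2. For ASNS, CBS and AARS the AU565 libraries are the lowest without torkinib, and with torkinib they are above both melanoma lines (ASNS 188 and 187 CPM).

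The cytosolic tRNA synthetases, which charge tRNAs with amino acids, moved like the ATF4 list. Of 20, 13 were higher and 6 lower in AU565, 10 of the higher by at least 2-fold and none of the lower, with a median difference of 0.92. In 10 of the 20 the direction was opposite, a rise in AU565 with a fall in both melanoma lines. AARS, for alanine, measured 105 and 101 CPM in untreated AU565 and 203 and 223 with torkinib. A375 went from 718 and 726 to 177 and 175 and SKMEL28 from 271 and 253 to 121 and 120.4, which gave a difference of 2.62 (SE 0.10, edgeR adjusted p = 7.33e-22). The differences were 2.17 for MARS (methionine), 2.11 for WARS (tryptophan) and 1.88 for GARS (glycine). Initiation and elongation factors did not share this: 4 of 36 translation factors were higher and 18 lower, with a median of -0.23. EIF2S2, a subunit of eIF2, was among the higher, at 0.79.

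**Figure D3:**
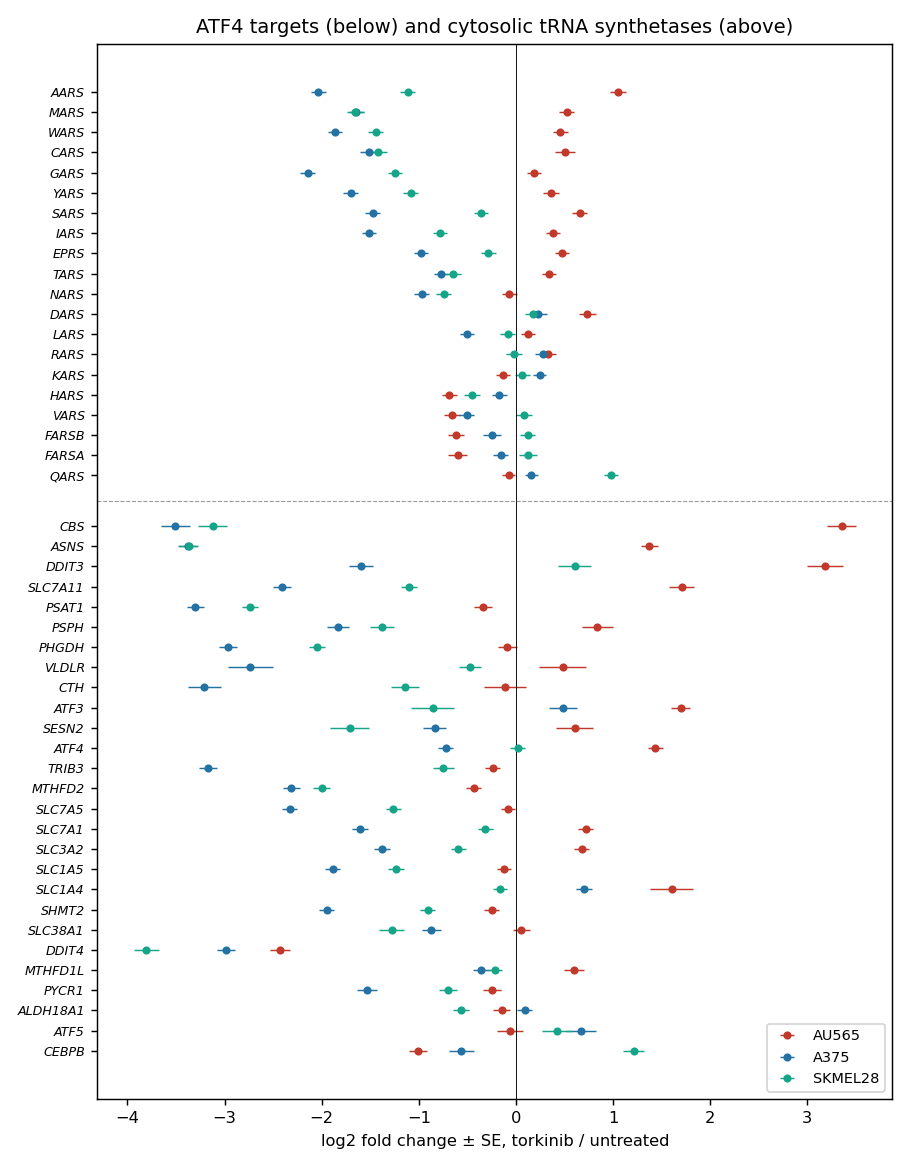
Log2 fold change with its standard error for 27 ATF4 targets (below the dashed line) and 20 tRNA synthetases (above it) in AU565, A375 and SKMEL28, ordered within each list by the difference of AU565 from the melanoma mean. In the upper rows of each list the AU565 points lie right of both melanoma points, as for AARS with a difference of 2.62.

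The response of matrix genes was higher in AU565 or not called. Of 34 mesenchymal and matrix genes in the counts, 12 reached 5 CPM in all 3 lines. Among these 12, the response of 8 was higher in AU565 and that of none lower. The median difference was 0.93, or 0.91 without untreated A375 replicate 1, and 1.36 and 1.255 with minimums of 1 and 20 CPM. Of the 12, 11 fell in SKMEL28 and 7 in A375, while 6 rose and 3 fell in AU565. Their median level in AU565 minus the melanoma mean was -0.65 without torkinib and -0.35 with it, on the log2 scale. CTGF, a secreted matrix protein and known target of YAP and TEAD factors, measured 118 and 115 CPM in untreated AU565 and 655 and 625 with torkinib. Its level was 53.6 and 31.4 and then 50.1 and 43.4 in A375, and fell from 158 and 144 to 33.96 and 31.6 in SKMEL28. The difference was 3.48 (SE 0.14, edgeR adjusted p = 1.05e-20), and 3.26 without untreated A375 replicate 1. CYR61, a relative of CTGF, and AMOTL2, which binds YAP, differed by 2.20 and 2.47; without that library the values were 2.07 and 2.51. Of 6 epithelial adhesion genes 3 were higher and 1 lower, with a median of 0.24. The next 3 genes are on neither list and have differences that are among the largest. CAV1, the coat protein of caveolae, rose from 2.87 and 2.47 CPM to 10.5 and 11.4 in AU565 and fell from 137 and 134 to 31.4 and 34.8 in A375 and from 160.3 and 140.4 to 71.5 and 69.4 in SKMEL28 (3.59, or 3.57 without untreated A375 replicate 1). MCAM, an adhesion molecule of melanoma cells, rose in AU565 from 6.06 and 5.9 to 62.8 and 56.3 CPM, still below its level in both melanoma lines. It fell in A375 from 333 and 336 to 239.7 and 236 and rose in SKMEL28 from 968 and 949 to 1135 and 1121 (3.43, with and without that library). TFPI2, a secreted protease inhibitor, rose from 1.38 and 0.961 to 29.3 and 32.8 CPM in AU565 and fell in A375 from 30.3 and 26.1 to 12.7 and 9.49. In SKMEL28 it measured 4.3 and 5.73 and then 6.22 and 6.1 CPM and was not called (5.22, or 5.16 without that library). In AU565, TFPI2 and CAV1 reached the level minimum only through the torkinib libraries. Markers of other cell types moved beside this group. Summed over 9 fibroblast markers, the level was 39.56 to 42.48 CPM in untreated melanoma libraries (0 to 5 of the 9 at 0) and 7.432 to 11.61 with torkinib (4 or 5 at 0), and in AU565 it was 7.599 and 7.312 and then 3.56 and 2.997 CPM (6 to 8 at 0). Summed over 8 endothelial markers, the level went from 67.98 and 67.54 to 98.17 and 102.9 CPM in AU565 (2 to 4 at 0) and was at most 9.025 in any melanoma library. Of 10 blood cell markers 5 to 10 were at 0, and their sum was at most 5.736 CPM. The part of these markers in the results for the matrix genes was not tested.

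Of 20 receptors and PI3K pathway genes, 10 were higher (50%) and 8 lower (40%). The median was 0.16, or 0.31 and 0.06 with minimums of 1 and 20 CPM. Against each melanoma line alone, 7 were higher and 4 lower. INSR, IGF1R and MET, described below, are among the higher members. Of 20 FOXO targets 11 were higher (55%) and 6 lower (30%), with a median of 0.50. Of all genes 23.1% were higher and 32.2% lower. INSR, the insulin receptor, rose from 10 and 10.3 CPM to 40.1 and 44.2 in AU565; it went from 20.98 and 20.3 to 28.5 and 25.7 in A375 and from 21.5 and 21.6 to 23.4 and 27.5 in SKMEL28. The difference was 1.75 (SE 0.17, edgeR adjusted p = 1.74e-10). IGF1R, its relative, differed by 1.39 and MET, the hepatocyte growth factor receptor, by 1.78; MET rose in AU565 by 1.26 and fell in A375 by 0.84. FOXO3, a FOXO factor, and CCNG2, a cyclin that acts against proliferation, rose in AU565 and differed by 1.70 and 2.48. KLF6 ran against the list, with a difference of -1.25. Of 16 genes of the MTOR complexes and their substrates 3 were higher and 9 lower. The higher ones included TSC1, which restrains complex 1 (1.08), and EIF4EBP1, which restrains translation and is also an ATF4 target (1.56), while its relative EIF4EBP2 was lower (-0.70).

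The immediate early genes FOS, FOSB and EGR1, which follow ERK signalling, rose in all 3 lines and rose further in the melanoma lines. FOS measured 381 and 387 CPM in untreated AU565 and 581 and 563 with torkinib. In A375 it rose from 10.03 and 7.28 to 350.4 and 289.6 and in SKMEL28 from 12.1 and 13.98 to 297 and 278. All 3 lines rose, and the difference of -4.25 (SE 0.15, edgeR adjusted p = 2.54e-22) came from the size of the rise in melanoma. FOSB (-3.55) and EGR1 (-2.19) also rose less in AU565 than in the melanoma mean. EGR1 rose in AU565 from 629.5 and 578 to 1484 and 1453 CPM and in A375 from 103 and 116 to 459.8 and 361. In SKMEL28 it rose from 17.01 and 16.6 to 530.1 and 567. Its rise was by far the largest in SKMEL28, and that in A375 was nearer to that in AU565. NR4A2, an immediate early nuclear receptor, moved in opposite directions, from 19.6 and 16.1 to 10.3 and 9.08 CPM in AU565, from 13.7 and 18.03 to 24.2 and 21.5 in A375 and from 8.8 and 8.6 to 97.7 and 103 in SKMEL28 (-2.93). Other ERK output genes went the other way: DUSP5, a phosphatase that acts on ERK, differed by 2.50 and EMP1 by 1.75. The list of 18 split evenly, with 6 higher and 6 lower (33.3% each, against 23.1% and 32.2% of all genes).

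Mitotic genes fell in all 3 lines and fell furthest in AU565. The response of all 27 mitotic genes was lower in AU565 than in each melanoma line, for 25 of them by at least 2-fold against the melanoma mean. The median changes were -4.24 in AU565, -2.23 in A375 and -2.67 in SKMEL28. PLK1, a mitotic kinase, fell from 81.6 and 79.3 CPM to 1.71 and 2.05 in AU565, from 125 and 133 to 21.5 and 18.3 in A375 and from 74.7 and 78.6 to 11.7 and 11.8 in SKMEL28. Its difference was -2.69 (SE 0.23, edgeR adjusted p = 8.26e-12). Untreated AU565 lay just above SKMEL28 and below A375, and with torkinib it was the lowest of the 3 lines. CDK1 (-2.54), ECT2 (-2.39) and TOP2A (-1.51) followed, and PTTG1, also called securin, went from 62.9 and 67.5 to 0.951 and 1.61 CPM in AU565. The share of dividing cells was not measured in these libraries, so fewer dividing cells and less RNA of these genes per cell cannot be told apart.

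Of 32 DNA replication genes 26 were lower and none higher (median -1.03, or -0.56 with a minimum of 20 CPM); 31 of them fell in AU565, all 32 in A375 and 31 in SKMEL28, where 1 rose. CDC6, which licenses origins, fell from 907 and 973 CPM to 69.05 and 70.03 in AU565, from 83.2 and 73.8 to 26.2 and 24.4 in A375 and from 106 and 115 to 30.8 and 28.2 in SKMEL28, a difference of -1.99 (SE 0.12, edgeR adjusted p = 5.35e-16). PCNA, the sliding clamp, differed by -1.59. Of 15 genes of G1 control 4 were higher (26.7%) and 7 lower (46.7%), against 23.1% and 32.2% of all genes. E2F1, which activates the replication genes, was lower (-2.35), while CDK6, a G1 kinase, rose in AU565 from 12.02 and 11.8 to 83.9 and 89.2 CPM and was higher (2.89); it was not called in A375 and fell in SKMEL28 by 0.27.

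The series asked about DNA repair. Repair genes showed no single direction. Of 31 homologous recombination genes 9 were higher (29%) and 12 lower (38.7%). Of 19 Fanconi anemia genes 3 were higher (15.8%) and 6 lower (31.6%). These shares lie near those of all genes, 23.1% and 32.2%. The recombination median of -0.08 ran from -0.36 to -0.01 when 1 library at a time was left out, and was 0.33 with a minimum of 20 CPM. Large differences were in BLM, a helicase (-2.28), its partner RMI2, listed as C16orf75 (-1.58), and EXO1, a nuclease (-2.02). BLM fell from 25 and 27.9 CPM to 2.85 and 1.9 in AU565, from 34.8 and 30.3 to 10.97 and 14.3 in A375 and from 56.1 and 66.4 to 31.1 and 29.3 in SKMEL28. FANCI (-1.24) and FANCD2 (-1.04), the pair that marks crosslinks, were lower, whereas the nuclease gene FAN1 was higher (0.96). All 9 replicative polymerase genes fell in each line; 4 fell further in AU565, POLE2 most (-1.78), and POLA1 fell less (0.54). Of 9 error-prone polymerase genes 3 were higher, POLI (1.04) and REV3L (0.79) among them, and 2 lower, POLQ (-2.04) and MAD2L2 (-0.83). The difference for REV3L did not hold against each melanoma line alone.

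The p53 targets differed between the melanoma lines. Their median change was 0.70 in A375, where 14 of 20 rose, -0.54 in SKMEL28, where 13 fell, and -0.15 in AU565. TIGAR, listed as C12orf5, a regulator of glycolysis, fell in AU565 from 15.1 and 18.4 CPM to 1.33 and 1.9 and rose in A375 from 19.8 and 20.4 to 35.8 and 31.2, while in SKMEL28 it fell from 25.2 and 27.2 to 17.5 and 16.3 (-3.36). ZMAT3, an RNA-binding protein, rose in A375 from 34.6 and 34.9 to 132 and 139 CPM and fell in AU565 and SKMEL28; its difference of -1.67 from the mean rested on A375 and did not hold against both lines.

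The mRNA of lipid synthesis genes fell more in AU565. Of 12 fatty acid synthesis genes 11 were lower and none higher, and of 22 cholesterol genes 18 were lower and none higher; the medians were -1.37 and -0.92. Before torkinib the same genes were higher in AU565 than in the melanoma mean by a median of 1.27 and 0.71, and afterwards by 0.50 and 0.12. FASN, fatty acid synthase, went from 4224 and 3552 CPM to 1033 and 1092 in AU565, from 752 and 799 to 613 and 569 in A375 and from 336 and 323 to 453 and 435 in SKMEL28. It fell in A375 and rose in SKMEL28, and the difference was -1.89 (SE 0.11, edgeR adjusted p = 9.21e-17). SREBF1, the master regulator of fatty acid synthesis, fell in AU565 from 714 and 680.0 to 145 and 142 CPM, fell in A375 by 0.33, rose in SKMEL28 by 0.27 and differed by -2.25. INSIG1, which holds back SREBP processing (-2.86), and DHCR7, the last enzyme of cholesterol synthesis (-1.62), were lower.

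FADS2, a fatty acid desaturase, had 339 reads in untreated AU565 and 2 with torkinib, a level 121 times lower (exact 95% interval 33.3 to 1005, counting error only), while A375 went from 25.6 and 28.6 to 15.1 and 18.1 CPM and SKMEL28 from 20.1 and 21.7 to 12.6 and 15.98. Its fitted difference of -6.14 was -9.49 without AU565 torkinib replicate 1 and -5.03 without replicate 2. AKR1C2, a steroid and carbonyl reductase, had 785 reads in untreated AU565 and none with torkinib, a level at least 187-fold lower against a floor of 3 reads over the group, and A375 went from 18.9 and 19.2 to 1.98 and 1.05 CPM and SKMEL28 from 12.1 and 9.32 to 1.75 and 3.12. AKR1C2 has near-identical copies and its count is uncertain. CRAT, carnitine acetyltransferase, fell from 136 and 129 to 8.75 and 10.99 CPM in AU565, went from 31 and 34.5 to 32.6 and 26.1 in A375 and rose from 18.4 and 18.8 to 25.9 and 28.2 in SKMEL28 (-3.93).

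Respiration genes fell more in AU565, where 44 of 45 nuclear genes of oxidative phosphorylation fell, against 11 in A375 and 24 in SKMEL28. The response of all 45 was lower in AU565 than the melanoma mean, and for 39 it was lower than in each line. The median changes were -1.04 in AU565, -0.09 in A375 and -0.28 in SKMEL28. These differences were modest, with 14 of 45 reaching 2-fold. The median level in untreated AU565 was 0.75 above the melanoma mean on the log2 scale, and with torkinib the gap was -0.01. UQCRC2, a subunit of complex III, went from 438 and 455 CPM to 198 and 193 in AU565, from 164 and 161 to 161 and 150.3 in A375 and from 206 and 202 to 243 and 236 in SKMEL28, a difference of -1.28 (SE 0.09, edgeR adjusted p = 7.54e-14). COX7B of complex IV (-1.47) and ATP5B of ATP synthase (-0.99) were lower too. Of 21 citric acid cycle genes 20 were lower and 1 higher, and PC, pyruvate carboxylase, differed by -1.63. Of 37 mitochondrial ribosomal protein genes 25 were lower and none higher. The genes that mitochondria encode did not follow: of 12, 2 were higher and none lower, with a median difference of 0.35. Neither of the 2 was higher against each melanoma line alone. The median changes were 0.35 in AU565, -0.25 in A375 and 0.49 in SKMEL28. The median difference was 0.22 without untreated AU565 replicate 2 and 0.22 without untreated SKMEL28 replicate 2. MT-ND3 (-0.33) was not called, but with a replicate block, only the 12 libraries or no filter it was called lower (edgeR adjusted p = 0.00363, 0.00143 and 0.000554). MT-CO1 (0.63) and MT-CO3 (0.49) lost their calls with DESeq2 (adjusted p = 0.0658 and 0.084). The share of counts from mitochondrial genes was 4.66% and 4.11% in untreated AU565 and 6.32% and 6.2% with torkinib. It rose in SKMEL28 as well, from 5.27% and 6.58% to 7.39% and 8.39%. In A375 it went from 3.17% and 3.56% to 3.03% and 2.62%.

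Glycolysis and hypoxia genes split, with 6 of 22 higher (27.3%) and 9 lower (40.9%), against 23.1% and 32.2% of all genes. VEGFA, the angiogenic growth factor and also an ATF4-responsive gene, rose from 92.6 and 86.3 CPM to 183 and 184 in AU565 and fell from 136 and 141 to 41.9 and 42.8 in A375 and from 71.95 and 64.9 to 28.2 and 30.9 in SKMEL28; the difference was 2.49 (SE 0.12, edgeR adjusted p = 8.93e-19). PFKFB3, which speeds glycolysis (1.76), and SLC2A1, the glucose transporter (1.49), were higher; for SLC2A1, SKMEL28 fell from 139 and 139.5 to 22.6 and 25.6 CPM while AU565 was not called. Among 19 NRF2 targets 4 were higher and 11 lower: NQO1, a quinone reductase (-1.50), and PGD, of the pentose phosphate route (-1.32), were lower, against the cystine importer SLC7A11, which is on this list too.

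Cytosolic ribosomal protein genes rose in every line, 50 of 52 in AU565, 50 in A375 and 52 in SKMEL28. The medians were 0.74 in AU565, 0.65 in A375 and 1.35 in SKMEL28, and the response of 28 was lower in AU565 than the melanoma mean. Only 7 of the 28 were lower against each melanoma line alone. RPS2 measured 1600.0 and 1729 CPM in untreated AU565 and 1903 and 1993 with torkinib, and rose in A375 from 1197 and 1230.0 to 1819 and 1802 and in SKMEL28 from 627 and 634 to 1521 and 1525. Many of these genes have pseudogenes, so their counts are uncertain.

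Of 35 proteasome genes 27 were lower (77.1%) and 1 higher. Of 24 endoplasmic reticulum chaperone genes 12 were lower (50%) and 5 higher (20.8%). Of 17 heat shock genes 12 were lower (70.6%) and 3 higher (17.6%). Of all genes 32.2% were lower and 23.1% higher. CALR, a calcium-binding chaperone, went from 566 and 602 CPM to 203 and 216 in AU565 and from 569 and 561 to 533 and 541 in A375, with a fall of 0.51 on the log2 scale in SKMEL28 (-1.18). XBP1, a factor of the unfolded protein response, differed by -1.04, in contrast to DDIT3. Lysosomal genes were lower at 19 of 35 and higher at 5. HEXA, a hydrolase, fell in AU565 by 0.34 and rose in A375 by 0.57 and in SKMEL28 by 0.90. Of 30 autophagy genes 10 were higher (33.3%) and 6 lower (20%). WIPI1, which binds the forming autophagosome, fell from 151 and 158 to 33.7 and 34.3 CPM in AU565, fell from 31.4 and 30.3 to 23.5 and 24.03 in A375 and rose from 261 and 277 to 469 and 463 in SKMEL28, a difference of -2.39 (SE 0.11, edgeR adjusted p = 5.52e-19); NBR1, an autophagy receptor, was higher (0.82).

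Of 17 interferon-stimulated genes at 5 CPM or more 8 were lower, 7 by at least 2-fold, and none was higher. Their median of -0.41 depended on the level minimum and was 0.02 at 1 CPM and -0.12 at 20 CPM; it was -0.27 without A375 torkinib replicate 2. IFI6, an interferon-induced protein, fell in AU565 from 30.1 and 30.5 to 4.95 and 4.1 CPM and measured 5.01 and 7.64 and then 5.94 and 7.17 in A375. It rose in SKMEL28 from 23.5 and 30.2 to 48.8 and 51.1, and the difference was -3.20 (SE 0.25, edgeR adjusted p = 6.89e-13). HLA-B (-1.65) and HLA-C (-1.22), class I antigen-presenting molecules, were lower too; genes of this family are similar in sequence and their counts may be shared.

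**Figure D4:**
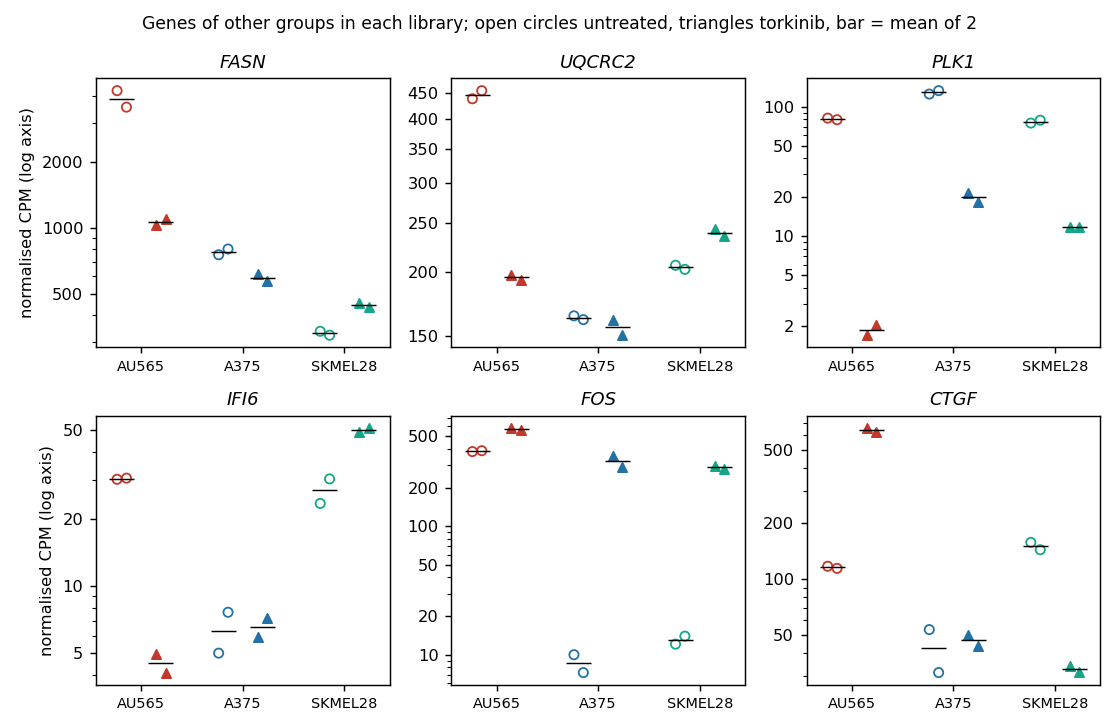
Normalised CPM on a log axis in each of the 12 libraries for 6 genes of other groups; open circles are untreated and triangles torkinib libraries, and bars are means of 2. FASN and UQCRC2 begin high in AU565 and fall toward the melanoma levels, PLK1 falls in all 3 lines, IFI6 falls in AU565 and rises in SKMEL28, FOS rises most in the melanoma lines, and CTGF rises to 655 and 625 CPM in AU565.

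Other genes at the lower end belonged to none of these groups. ST6GAL1, a sialyltransferase, went from 131 and 123 CPM to 7.04 and 7.33 in AU565, from 142 and 138 to 124 and 122 in A375 and from 379.7 and 379 to 219.6 and 222 in SKMEL28, a difference of -3.66 (SE 0.15, edgeR adjusted p = 1.63e-20). HES6, a transcription factor of the hairy and enhancer of split family, fell in AU565 from 9.57 and 13.3 to 2.28 and 2.78 CPM and rose in A375 from 3.69 and 4.18 to 7.31 and 5.69 and in SKMEL28 from 33.04 and 29.5 to 126 and 129. SEPT6, a septin, fell from 16.6 and 20.2 to 1.52 and 0.879 CPM in AU565 and by 0.87 on the log2 scale in A375, and was not called in SKMEL28 (-3.54). GAS2L3, which links actin and microtubules, differed by -3.93 on 188 reads in untreated and 5 in torkinib AU565, and by -3.13 without AU565 torkinib replicate 1 and -8.50 without replicate 2. In AU565, AKR1C2, FADS2, PTTG1, SEPT6, HES6 and GAS2L3 reached the level minimum only through the untreated libraries. LASS4, a ceramide synthase (-2.97), PRR7 (-2.67) and LRFN4 (-2.50), a pair of membrane proteins of synapses and immune cells, fell in AU565 and rose in both melanoma lines. At the upper end AC073995.2 rose from 7.13 and 6.72 CPM to 83.3 and 94.2 in AU565 (3.59).

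Lineage genes could be read only where all 3 lines expressed them. ERBB2 fell in AU565 from 9856 and 9403 CPM to 5586 and 5958, a difference of -0.60 (SE 0.11, edgeR adjusted p = 2.21e-05), and stayed far above the melanoma lines. It was the only 1 of 4 luminal and HER2 markers at 5 CPM or more with a called difference. KRT18, STARD3 and TFAP2C were not called. MITF, the melanocyte regulator, rose in AU565 from 6.7 and 5.9 to 21.1 and 22.9 CPM and in SKMEL28 from 502 and 540.0 to 922 and 862, and fell in A375 from 30.6 and 34.1 to 19.8 and 18.8. MDM2 differed by -0.64, and by -0.96 without untreated A375 replicate 1; DESeq2 gave an adjusted p of 0.0832. Among the lists with 5 or more members, 23 had more lower than higher genes and 10 the reverse. Over all 9009 genes, too, more were lower (32.2%) than higher (23.1%), and some lists share members.

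**Figure D5:**
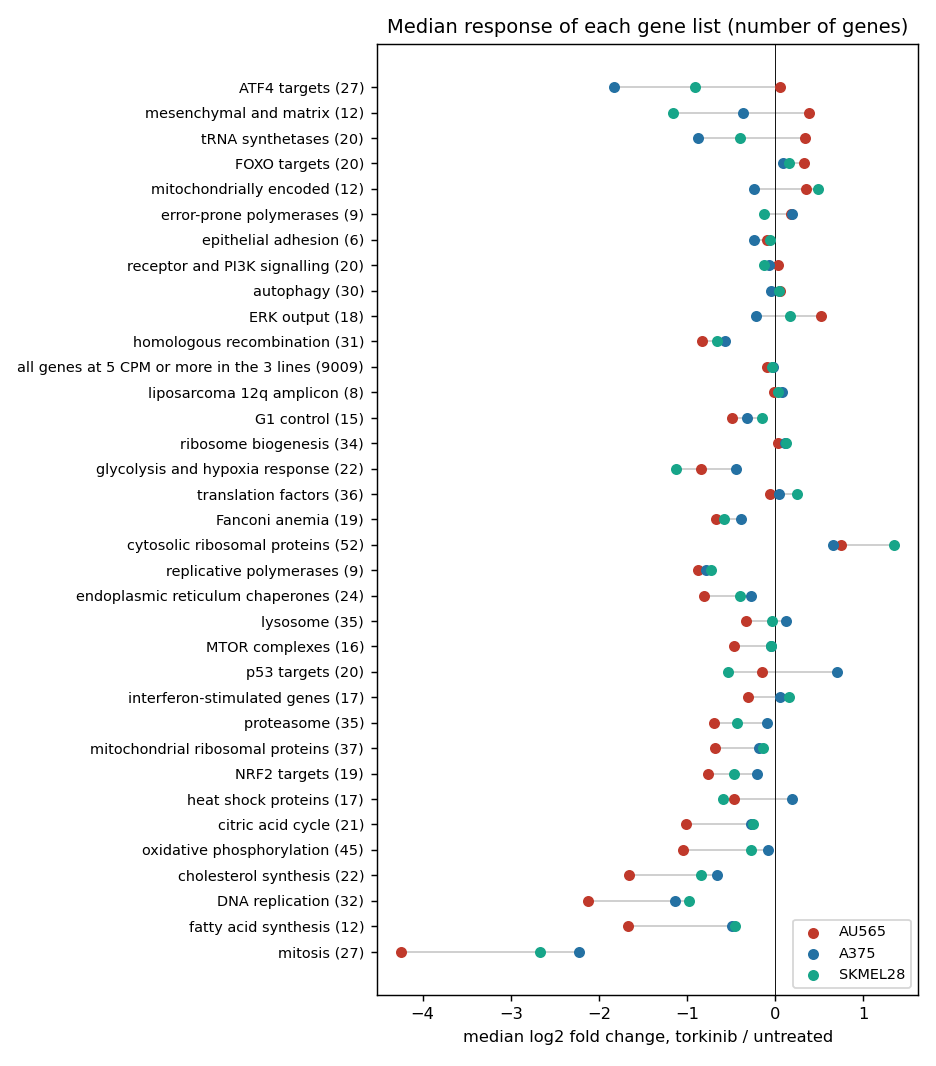
Median log2 fold change of each gene list with 5 or more members in AU565, A375 and SKMEL28, from the highest difference of AU565 at the top to the lowest at the bottom, with all 9009 genes as 1 row. AU565 lies right of both melanoma lines for ATF4 targets, matrix genes and tRNA synthetases, and furthest left for mitosis (-4.24).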

How the data were processed

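RNA of untreated and torkinib-treated cells was sequenced. The authors deposited raw read counts by gene symbol, 1 file for each library. Tools named in the submitters' processing notes are HISAT2 2.04, HTSeq 0.6.1 and limma 3.34.9, with build hg19. Neither what each did nor the use of strand is given in the sources used here, so a gene and its antisense partner cannot be told apart. Lines of the counter that name no gene were left out; counted reads were 47.78 to 61.76% of each of the 12 libraries.

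Counts were fitted in R 4.3.3 with edgeR 4.0.16 (TMM factors, filterByExpr, 16698 genes, 10 group means over all 20 libraries, quasi-likelihood test, Benjamini-Hochberg adjustment over all tested genes, threshold 0.05). A gene "rose" or "fell" where this test called it within a line. Levels are normalised CPM. Alternatives were other size factors, no filter, DESeq2 1.42.0, limma-voom (limma 3.58.1), only 12 libraries, a replicate block, other level minimums and each library left out. Methods were tested on simulated data.

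Named genes were the 10 largest and 10 smallest differences called against both melanoma lines with separated libraries, the 5 largest opposite responses in each direction, for each list described the 4 members of smallest p, and MTOR; a few of these are not reported here; ATF4, CEBPB and ATF5 were added after their values were seen. The members, the 40 gene lists and the tests were chosen with earlier results of these data known. Where replicate numbers are shared, torkinib and untreated libraries of 1 number did not deviate together (correlations of -0.0455 in AU565, -0.105 in A375 and 0.01 in SKMEL28), so the numbers were not used to pair libraries. Symbols were matched to RefSeq promoters (GRCh38.p14), of which 7439 of 9009 had a match.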

Additional observations from a re-analysis of the deposited data

Results flagged for a closer look

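The response to torkinib differed between AU565 and the mean of the melanoma lines, by a test of the difference itself, at 4981 genes, and 271 genes moved in opposite directions. Among the latter the log2 difference was 6.67 for CBS, 5.23 for ADM2, 4.75 for ASNS, 3.59 for CAV1 and 3.46 for SLC7A11, which rose in AU565 and fell in both melanoma lines. It was -3.52 for HES6, -2.97 for LASS4, -2.93 for NR4A2, -2.67 for PRR7 and -2.50 for LRFN4, which fell in AU565 and rose in both melanoma lines.

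Genes that mark the liposarcoma line 94T778 were present in untreated A375 replicate 1 at a median of 2.15% of their level in 94T778, above the 0.157% of replicate 2. Their part in the results was not tested beyond leaving that library out.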

How the results depend on the processing

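The count of genes with a different response was 4981 and lay between 4446 (DESeq2) and 5552 (only the 12 libraries of the 3 lines) under other size factors, tools, filters and blocks. With a level minimum of 20 CPM it was 3312, and the 2-fold count of 1241 was 574; with 1 CPM the 2-fold count was 1931, with 992 higher and 939 lower. These minimums change how many genes are read. With a replicate block, which the replicate numbers do not justify, the count was 5065, that for opposite responses 284 and the difference for MTOR -0.43; with A375 numbers crossed, chosen after seeing the data, the first count was 5075. Leaving out 1 library at a time gave 4230 to 4911 genes, 1197 to 1303 by 2-fold, 4181 to 4772 against A375, 3887 to 4573 against SKMEL28, 2474 to 2826 against both, 211 to 264 opposite responses, and -0.48 to -0.40 for MTOR. The 20 genes with the largest and smallest differences were called against both lines under each of these alternatives except the level minimums, where this was not run, and no named difference past the test changed sign. The median over all genes moved from -0.09 to -0.14 without the filter and -0.12 with only 12 libraries. The median of the interferon list was 0.02 at 1 CPM, that of the replicative polymerases 0.03 and that of DNA replication -0.56 at 20 CPM. With 2 libraries a group, the spread is pooled over all groups.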
